A study of Mus musculus with 24 samples.

Results

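Ttc25, Acly and 8 further genes that lie beside them on mouse chromosome 11 were followed across the hearts of transgenic and control mice. Ttc25 was chosen because its signal was higher in transgenic than in control hearts under both treatments. The other genes, Jup, Klhl10, Klhl11, Cnp, Dnajc7, Nkiras2, Dhx58 and Rab5c with Acly, are a choice from those that lie near it, and not all genes between them were taken. The question was whether the neighbours, Acly above all, rose with Ttc25. These are 10 of the 36413 gene names on the arrays, read by 13 probes, and all 10 were well above background on at least 6 of the 24 arrays, the filter that left 28235 gene names. By its brighter probe Ttc25 was 4.95-fold higher in transgenic hearts under vehicle and 3.21-fold higher under streptozotocin, and none of the 9 neighbours passed the test in either comparison.

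Each array held RNA from the left ventricle of 1 male mouse, with 6 mice in each of 4 groups. The CON_VEH group carried no transgene and received vehicle, and the CON_STZ group carried no transgene and received streptozotocin, a toxin of pancreatic beta cells that causes diabetes, at 55 mg per kg on 5 days. The mG4H_VEH and mG4H_STZ groups carried mG4H, a transgene for the glucose transporter GLUT4 that can be switched on and is restricted to heart muscle cells, and received the same vehicle or streptozotocin. Per the labels, the transgene was induced 2 weeks after streptozotocin and the hearts were taken 2 weeks later, and related mice were present in more than 1 group. The promoter that drives the transgene, its site of integration, the strain and the age of the mice are not given in the sources used here.

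Ttc25 encodes a tetratricopeptide repeat protein of the docking complex that fixes outer dynein arms to the microtubules of motile cilia. Acly encodes ATP citrate lyase, which splits citrate in the cytosol and so supplies the acetyl-CoA for fatty acid synthesis, sterol synthesis and protein acetylation. Jup encodes plakoglobin, a component of desmosomes and adherens junctions that holds cardiac muscle cells together at the intercalated disc. Klhl10 and Klhl11 encode kelch proteins that bring substrates to cullin ubiquitin ligases, and Klhl10 is known for its role in maturing sperm. Cnp encodes a phosphodiesterase of myelin, Dnajc7 a partner of the Hsp70 and Hsp90 chaperones, Nkiras2 a small Ras-like inhibitor of NF-kappaB, Dhx58 a sensor protein related to RIG-I, and Rab5c a GTPase of early endosomes.

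The RefSeq gene table of assembly GRCm38.p6, used only for names and order, matched 10 of 10 genes and placed 16 genes from Jup to Rab5c. The order was Jup, P3h4, Fkbp10, Nt5c3b, Klhl10, Klhl11, Acly, Ttc25, Cnp, Dnajc7, Nkiras2, Zfp385c, Dhx58, Kat2a, Hspb9 and Rab5c, with 0 genes between Acly and Ttc25. On the build mm9, which the array files use, the brighter Ttc25 probe lies at chr11:100415182-100415241 on the plus strand. The brighter Acly probe lies at chr11:100337674-100337733 on the minus strand, 77.5 kb away. The farthest of the 10 genes on either side were Jup, 177.1 kb before the Ttc25 probe, and Rab5c, 161.4 kb after it. The first measured genes beyond them were Hap1, 206.4 kb before, and Kcnh4, 186.5 kb after. Genes in between that were not taken include Fkbp10, 129.1 kb before, and Zfp385c, Kat2a and Hspb9, 73.7, 150.9 and 160.45 kb after. Whether a probe lies in an exon or intron was not read, since no transcript models of mm9 were used here.

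The arrays read each gene through probes of 60 bases, and 4 of them are given because they read Ttc25 itself, Acly where its probes disagree, and the genes Klhl11 and Jup on the far side of Acly. They are written 5′ to 3′ as the files give them, with no base marked, and each holds at least 1 reading frame without a stop codon. The Ttc25 probe starts at base 1017 of its transcript, the dimmer Acly probe at base 1498, the Klhl11 probe at base 1602 and the Jup probe at base 1824. On mm9 the Acly probe lies at chr11:100365518-100365577, the Klhl11 probe at chr11:100324700-100324759 and the Jup probe at chr11:100238038-100238097, all on the minus strand.
Ttc25, brighter probe: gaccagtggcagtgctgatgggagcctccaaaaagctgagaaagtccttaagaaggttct
Acly, dimmer probe: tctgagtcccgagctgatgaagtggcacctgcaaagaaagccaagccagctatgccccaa
Klhl11: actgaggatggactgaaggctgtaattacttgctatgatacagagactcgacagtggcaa
Jup: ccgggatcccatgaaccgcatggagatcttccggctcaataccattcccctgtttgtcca

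Levels are given as log2 of the processed signal minus log2 of that array's 75th percentile, so 0 is the array's 75th percentile and a difference of 1 is a doubling. The 75th percentile signal ran from 369.8 to 583.2 over the arrays, and 58.5 to 76.3% of gene spots were well above background. The arrays lay on 4 slides. Slides 1, 2 and 3 held mice of every group, and slide 4, scanned on another day, held only CON_VEH replicate 3 and mG4H_VEH replicate 3. The summed level of 11 markers of ventricular muscle, such as Myh6 and Tnnt2, was high in every group and spanned 3785 to 5350 times the 75th percentile signal. The probe for Slc2a4, the mouse gene for GLUT4, lies 30.7 Mb from Ttc25 on the same chromosome, and its level did not pass the test between mG4H and CON hearts. Its difference was -0.20 ± 0.16 (SE) under vehicle and 0.20 ± 0.16 under streptozotocin (limma, adjusted p = 1 in both). An exact permutation test of this gene alone, unadjusted, gave p = 0.026 under vehicle and 0.368 under streptozotocin. Under vehicle 0 of 6 mG4H hearts lay above the CON mean. Whether the transgene carries the sequence of this probe is not stated, so it is no check of the labels.

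Ttc25 was low in every control heart and higher in every transgenic heart. In CON_VEH hearts its brighter probe ran from -4.61 over a median of -4.51 to -3.93, with a mean of -4.42 ± 0.25 (SD, n = 6). In mG4H_VEH hearts it ran from -2.61 over a median of -2.17 to -1.41, with a mean of -2.11 ± 0.41 (SD, n = 6). The groups did not overlap, and a gap of more than 1 log2 unit separated the highest control from the lowest transgenic heart. Under streptozotocin, CON_STZ hearts ran from -4.43 over -4.15 to -3.34 (mean -4.03 ± 0.42, SD, n = 6) and mG4H_STZ hearts from -2.80 over -2.40 to -1.73 (mean -2.35 ± 0.36, SD, n = 6). These groups did not overlap either, and the probe was well above background on all 24 arrays.

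The genotype difference of Ttc25 was 2.31 ± 0.21 (SE) under vehicle, which is 4.95-fold, with a 95% interval of 3.68 to 6.66. Under streptozotocin it was 1.68 ± 0.21, which is 3.21-fold, with an interval of 2.38 to 4.31. From the highest difference down, it held rank 4 of 28235 gene names under vehicle and rank 1 under streptozotocin. Ttc25 was chosen on these values, so they are a description with no test. The background was also corrected by the normexp model, with an offset of 50 added to every signal, in place of the scanner software. The differences were then 0.94 and 0.71, the same in direction and less than 0.5 times as large. An added offset narrows the log2 differences of dim probes, and its share in the smaller values was not tested. Within slides the vehicle difference was 2.60, 2.58 and 2.27 on slides 1 to 3 and 1.33 between the 2 arrays of slide 4. The streptozotocin difference within slides 1 to 3 was 1.74, 1.82 and 1.48.

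The second Ttc25 probe, at chr11:100433658-100433717 and nearer the end of the transcript, went the same way at a signal close to background. It was well above background in 0 of 6 CON_VEH hearts, 1 of 6 CON_STZ hearts, 5 of 6 mG4H_STZ hearts and 6 of 6 mG4H_VEH hearts. Its level ran from -7.38 to -5.95 in CON_VEH, from -4.93 to -3.33 in mG4H_VEH, from -6.90 to -4.39 in CON_STZ and from -5.37 to -4.08 in mG4H_STZ. The groups were apart under vehicle and overlapped under streptozotocin, where CON_STZ replicate 3 alone reached into the transgenic range. Because no CON_VEH heart was well above background, the vehicle value is a bound, and mG4H_VEH hearts were at least 2.30-fold higher. That bound sets the mean of the mG4H_VEH hearts, -4.08, against the lowest signal well above background on the control arrays, a mean of -5.29, where the measured mean was -6.82.

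**Figure D1:**
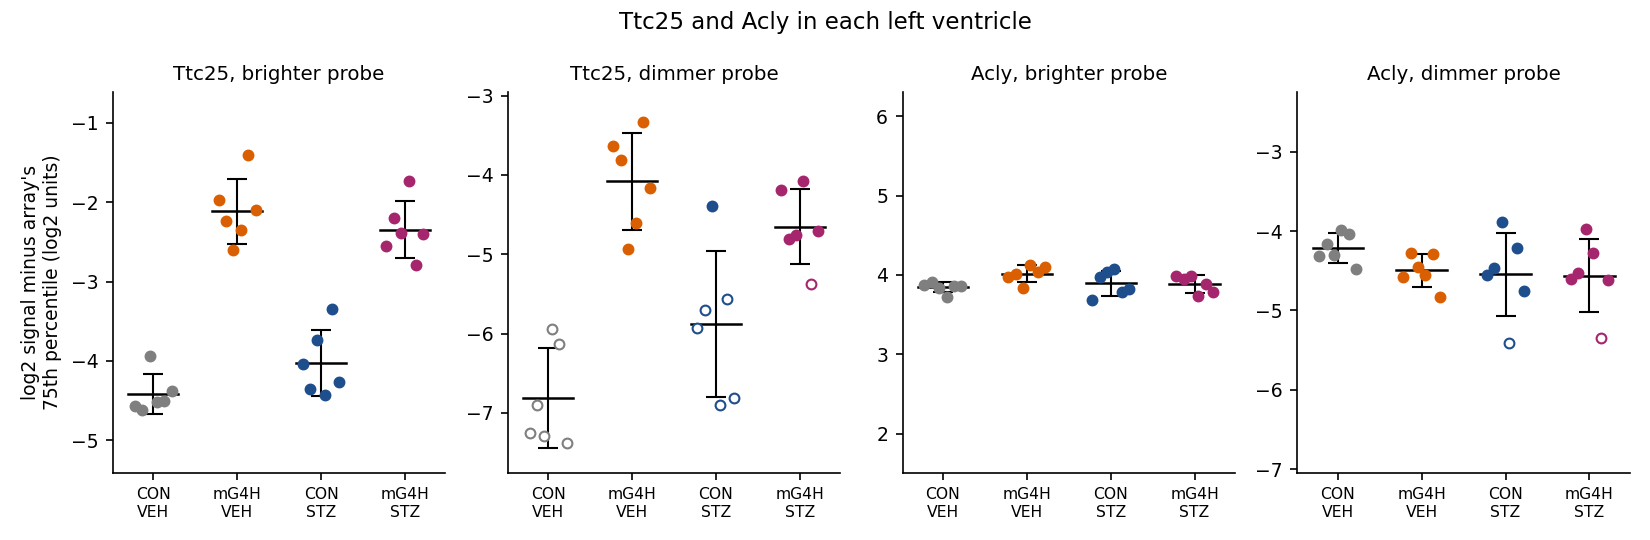
Each point is 1 left ventricle, placed by its log2 signal minus the array's 75th percentile (vertical axis, log2 units, each panel spanning the same number of units) in the 4 groups (horizontal axis), for both probes of Ttc25 and both probes of Acly. Open points were not well above background, and lines and bars are the mean and SD of 6 mice. The brighter Ttc25 probe separates the genotypes under both treatments, from -4.42 to -2.11 under vehicle, while the brighter Acly probe stays between 3.69 and 4.12 in all hearts.

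Acly, the neighbour next to Ttc25, did not rise with it in a way that passed the test over all genes. The brighter Acly probe ran from 3.72 over a median of 3.86 to 3.91 in CON_VEH hearts (mean 3.84 ± 0.065, SD, n = 6) and from 3.83 over 4.03 to 4.12 in mG4H_VEH hearts (mean 4.01 ± 0.11, SD, n = 6). The 2 groups overlapped, and 5 of 6 transgenic hearts lay above the control mean. The difference was 0.17 ± 0.076 (SE), or 1.13-fold with a 95% interval of 1.01 to 1.26, so a rise the size of that of Ttc25 lies far outside the interval. In the limma fit its unadjusted p was 0.0357 and its adjusted p over all genes was 1. An exact two-sided permutation test of this probe alone over the 924 splits of 6 against 6 gave p = 0.0108. Benjamini-Hochberg adjustment over the 4 comparisons of this probe gave 0.0433. The same test was run on the dimmer Acly probe, on the other neighbours and on Slc2a4, outside this adjustment. Within slides 1 to 4 the difference was 0.21, 0.13, 0.22 and 0.0034.

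Under streptozotocin the Acly levels of the genotypes lay within the same range. CON_STZ hearts ran from 3.69 over 3.89 to 4.07 and mG4H_STZ hearts from 3.73 over 3.91 to 3.99, with means of 3.89 ± 0.15 and 3.89 ± 0.11 (SD, n = 6 each). The difference was -0.0065 ± 0.076 (SE), with an interval of the fold from 0.892 to 1.11, and the exact permutation test gave p = 0.933. The genotype differences of Acly under the 2 treatments did not pass a test against each other, with a difference of -0.18 ± 0.11 between them (limma, adjusted p = 1).

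The dimmer Acly probe, whose sequence is given above, went the other way under vehicle. It ran from -4.48 to -3.99 in CON_VEH and from -4.83 to -4.27 in mG4H_VEH hearts, a difference of -0.28 ± 0.21 (SE). Here 0 of 6 transgenic hearts lay above the control mean, with an unadjusted exact permutation p of 0.0368. Under streptozotocin its difference was -0.015 ± 0.21. With all probes of a gene averaged, the Acly difference under vehicle was -0.056, against 0.17 for the brighter probe alone. The direction of the vehicle difference of Acly thus depended on the probe read, but the probes were not equally bright. The dimmer probe had a mean of -4.21 in CON_VEH hearts, against 3.84 for the brighter probe, and the average weights both equally. It was well above background in 6 of 6 hearts of each vehicle group and in 5 of 6 of each streptozotocin group.

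Across mice, Acly did not follow Ttc25 within any group in a way that passed a test. Pearson's r between the brighter probes was -0.19 in CON_VEH, 0.36 in mG4H_VEH, -0.35 in CON_STZ and -0.55 in mG4H_STZ, over 6 mice each. The 4 exact permutation p-values were 0.610, 0.456, 0.493 and 0.267, each 0.610 after adjustment over the 4 groups. Spearman's rho was -0.66, 0.14, -0.54 and -0.26, with exact permutation p-values of 0.175, 0.803, 0.297 and 0.658, adjusted to 0.594, 0.803, 0.594 and 0.803. Without the 2 mice farthest from the median of Ttc25, r over the other 4 was -0.70, -0.62, -0.97 and -0.12 in the same order of groups, so the positive r in mG4H_VEH rested on those mice.

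**Figure D2:**
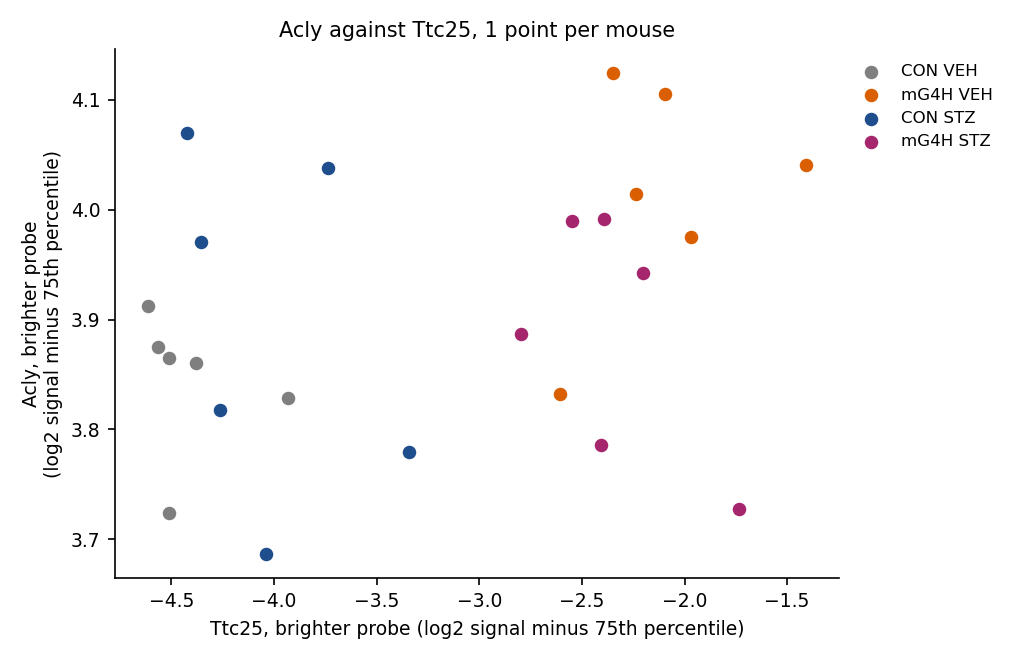
Each point is 1 mouse, with Ttc25 on the horizontal and Acly on the vertical axis, both as log2 signal of the brighter probe minus the array's 75th percentile, coloured by group. The genotypes part along the Ttc25 axis, while within each group of 6 mice the points show no common slope, with r from -0.55 to 0.36.

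None of the 9 neighbours passed the limma test between mG4H and CON hearts, at an adjusted p under 0.05 over all genes, under either treatment. Over all 28235 gene names 0.0815% passed under vehicle and 0.0106% under streptozotocin. At an unadjusted p under 0.05, 1 of 9 neighbours, Acly, was reached under vehicle and 0 of 9 under streptozotocin, beside 2.87% and 3.55% of all gene names. The neighbours' median difference was 0.067 under vehicle, in a range from -0.10 to 0.25, and 0.015 under streptozotocin, in a range from -0.048 to 0.12. The median over all gene names was -0.0084 and 0.015. For 0 of 9 neighbours were the mG4H hearts apart from and above the CON hearts, which held for 0.4% of all gene names under vehicle and 0.163% under streptozotocin.

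Jup, the junction protein at the far end of the region, was between -1.34 and -0.95 in CON_VEH and between -1.30 and -1.13 in mG4H_VEH hearts. Its genotype difference was -0.10 ± 0.098 (SE) under vehicle and 0.12 ± 0.098 under streptozotocin, and the groups overlapped in both. Klhl11 lay between -4.69 and -3.80 over all 24 hearts, with differences of 0.11 ± 0.15 and 0.021 ± 0.15.

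Klhl10 stood apart through 1 array. Its level in CON_VEH replicate 3, an array of slide 4, was -3.35, whereas the other 5 CON_VEH hearts lay between -1.37 and -1.02 and mG4H_VEH hearts between -1.48 and -1.04. With that heart the genotype difference under vehicle was 0.25 ± 0.30 (SE), and without it the sign turned, to -0.11. Under streptozotocin the difference was -0.030 ± 0.30.

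On the other side of Ttc25, the nearest genes showed the smallest differences under vehicle. Cnp, whose probe lies 27.4 kb from that of Ttc25, lay between -0.58 and -0.38 in CON_VEH and between -0.58 and -0.43 in mG4H_VEH hearts, with differences of -0.012 ± 0.094 (SE) under vehicle and 0.015 ± 0.094 under streptozotocin. Dnajc7, 29.0 kb away, had the same mean of 5.24 in both vehicle groups, and its difference under streptozotocin was 0.12 ± 0.11. The fold interval of Dnajc7 under vehicle was 0.851 to 1.18.

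Nkiras2, 73.7 kb from Ttc25, had differences of 0.067 ± 0.12 (SE) and 0.088 ± 0.12 by its brighter probe, and -0.019 ± 0.092 and 0.11 ± 0.092 by its second probe. The brighter Nkiras2 probe and the probe of Zfp385c overlap on opposite strands. Dhx58, the RIG-I-like protein, differed by 0.018 ± 0.21 and -0.048 ± 0.21, and Rab5c, the endosomal GTPase, by 0.16 ± 0.12 and -0.032 ± 0.12. Without CON_STZ replicate 3 the Dhx58 difference under streptozotocin was -0.29. For Nkiras2, Dhx58 and Rab5c the groups overlapped. The vehicle difference of Rab5c was 0.050, 0.010 and 0.14 within slides 1 to 3 and 0.46 between the 2 arrays of slide 4. Without CON_VEH replicate 3 it was 0.069.

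**Figure D3:**
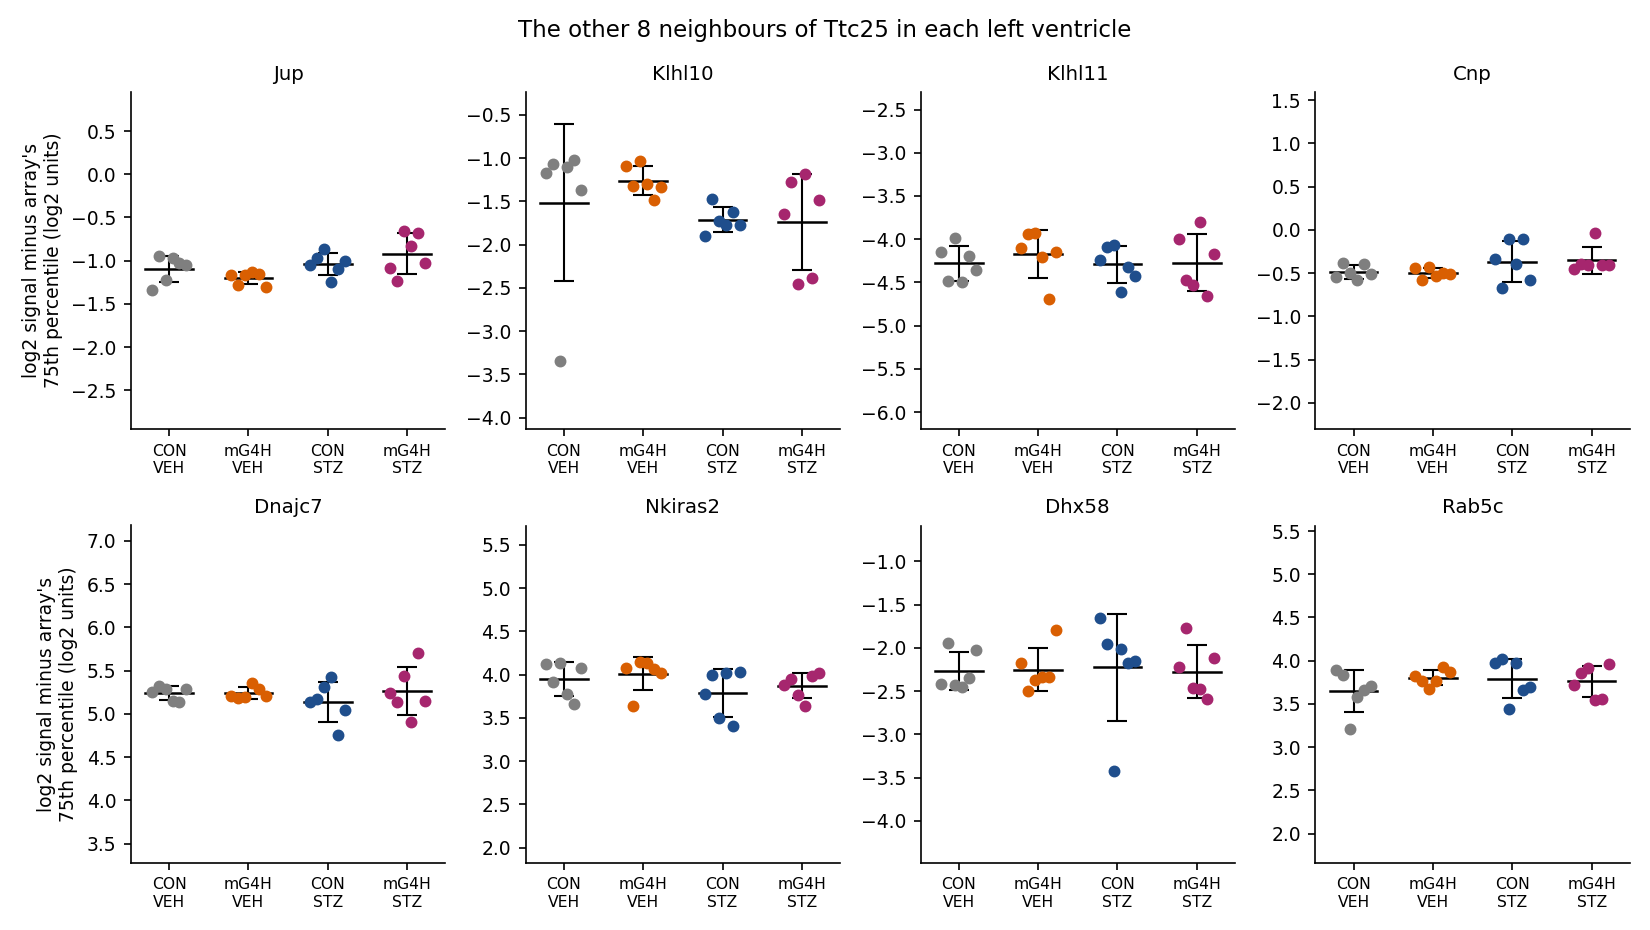
Each point is 1 left ventricle for the 8 neighbours other than Acly, with the log2 signal minus the array's 75th percentile on the vertical axis (log2 units, each panel spanning the same number of units) and the 4 groups on the horizontal axis. Lines and bars are the mean and SD of 6 mice. The groups overlap in every panel for mG4H against CON, and the low Klhl10 point at -3.35 is CON_VEH replicate 3.

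**Figure D4:**
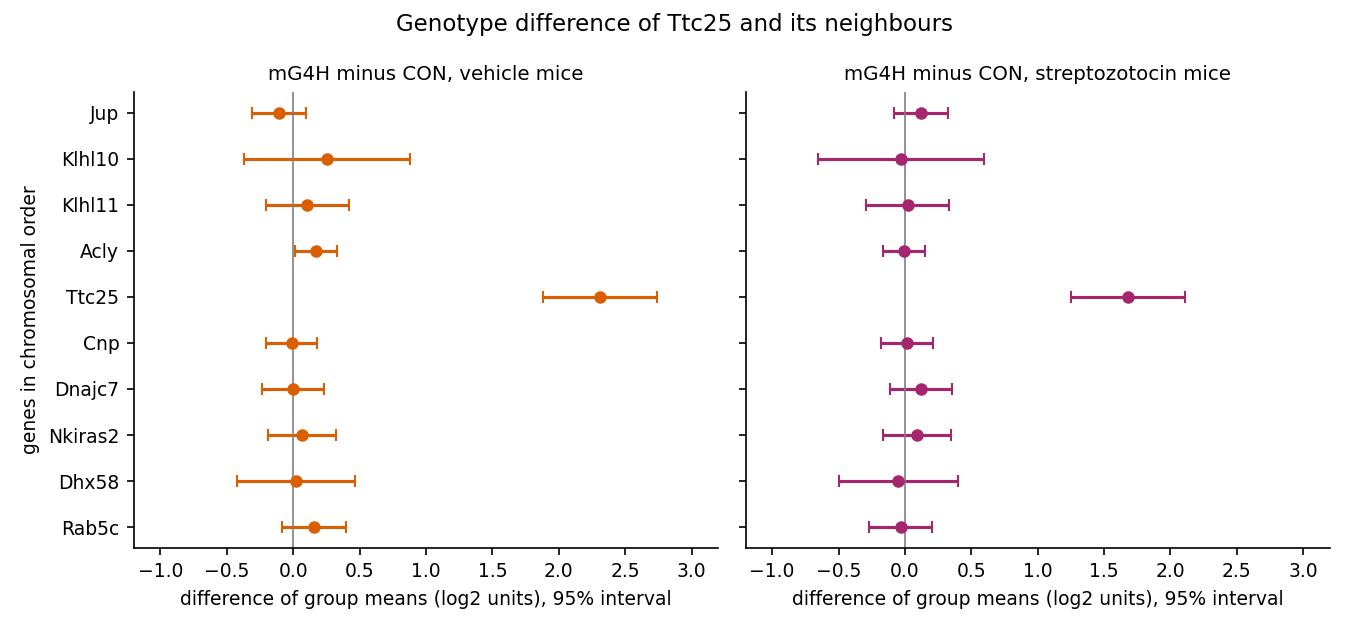
Points are the mG4H minus CON differences of group means (horizontal axis, log2 units) with 95% intervals from the limma fit, for the 10 genes in chromosomal order (vertical axis), in vehicle mice on the left and streptozotocin mice on the right. Ttc25 lies at 2.31 and 1.68, and the 9 neighbours lie between -0.10 and 0.25 and between -0.048 and 0.12.

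No other gene in the wider region passed between the genotypes. Within 1 Mb of the Ttc25 probe the arrays held 164 probes for 132 gene names, of which 112 passed the filter, 111 of them besides Ttc25. The limma test called 0 of the 111 in either genotype comparison, beside 0.0815% of all gene names under vehicle and 0.0106% under streptozotocin. An unadjusted p under 0.05 was reached by 6 of them (5.41%) under vehicle and by 1 (0.901%) under streptozotocin, beside 2.87% and 3.55% of all gene names. Their median difference was 0.0043 under vehicle and 0.055 under streptozotocin, with ranges from -0.93 to 0.63 and from -0.46 to 0.62. Beyond 1 Mb the range was wider under streptozotocin. Among the 176 gene names other than Ttc25 within 2 Mb, the highest difference was 1.36, above the highest of 1.34 on other chromosomes. The gene at 1.36 did not pass, and its mG4H_STZ and CON_STZ hearts overlapped. The highest vehicle difference within 2 Mb was 0.63. The nearest other gene on chromosome 11 that passed under vehicle, named after its values were seen, was Grin2c, a subunit of the NMDA glutamate receptor, 14.7 Mb away, with a difference of -1.32 (adjusted p = 0.0103). Acaca, the acetyl-CoA carboxylase that uses the product of Acly, lies 16.2 Mb on the other side and was higher by 1.04 (adjusted p = 0.000529). Under streptozotocin 0 other genes of chromosome 11 passed.

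**Figure D5:**
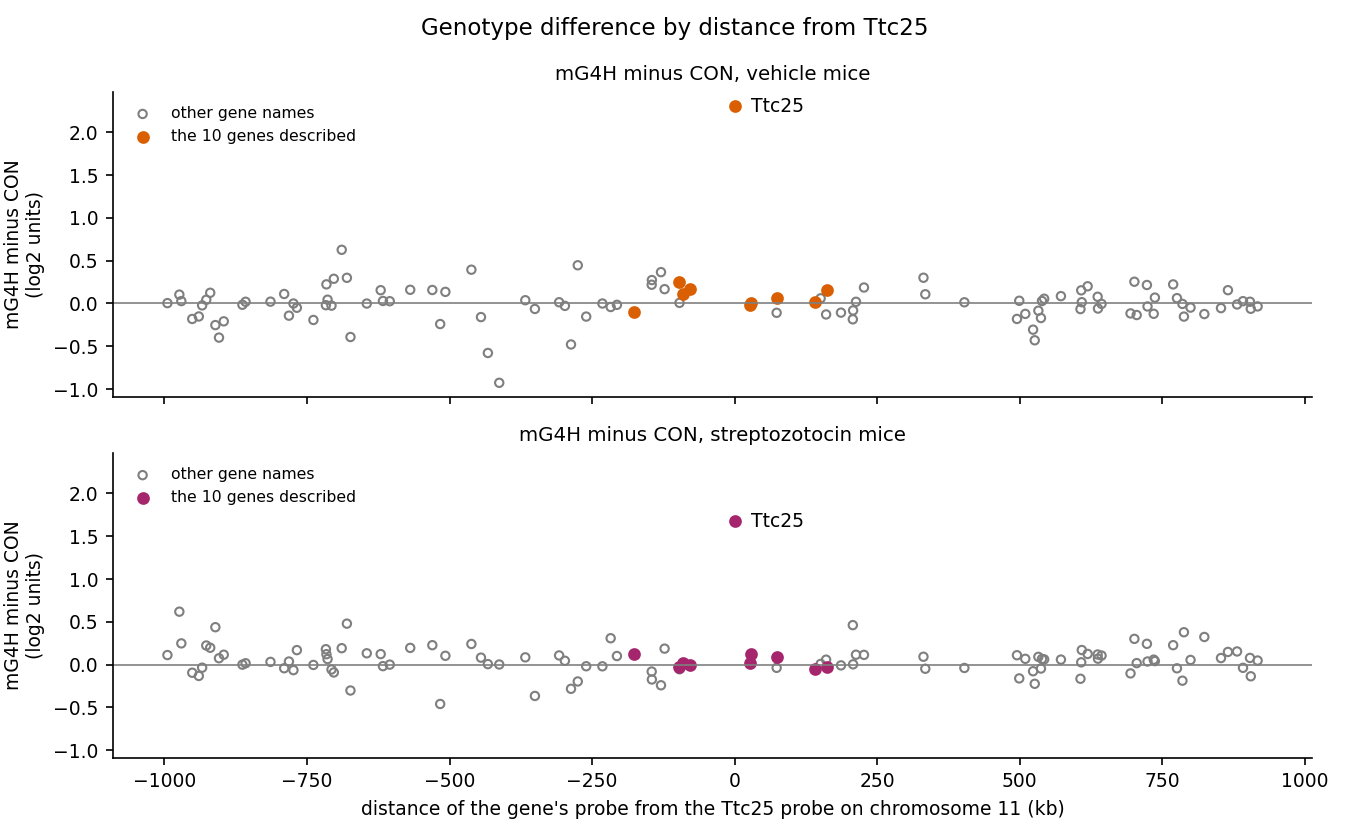
Each point is 1 of the 112 gene names within 1 Mb of the Ttc25 probe, with the distance in kb on the horizontal axis and the mG4H minus CON difference in log2 units on the vertical axis, for vehicle mice above and streptozotocin mice below. Filled points are the 10 genes described and open points all others. Ttc25 stands alone at 2.31 and 1.68, and all other points lie between -0.93 and 0.63.

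Streptozotocin changed none of the 10 genes by the same test. In control hearts 3.96% of all gene names passed between CON_STZ and CON_VEH, and in transgenic hearts 0.266% passed between mG4H_STZ and mG4H_VEH, against 0 of 10 genes in each. Unadjusted p was under 0.05 for 0 of 10 genes in control and 1 of 10, Jup, in transgenic hearts, beside 14.3% and 14.01% of all gene names. Both comparisons share their groups with the genotype comparisons.

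Ttc25 was 0.39 ± 0.21 (SE) higher with streptozotocin in control hearts (adjusted p = 0.423) and had a difference of -0.24 ± 0.21 in transgenic hearts (adjusted p = 0.707), so neither passed. The genotype difference of Ttc25 was smaller under streptozotocin by 0.63, given as a description. Acly differed by 0.049 ± 0.076 in control hearts (adjusted p = 0.953) and by -0.13 ± 0.076 in transgenic hearts (adjusted p = 0.493). Jup had the lowest adjusted p of the 10, with a difference of 0.28 ± 0.098 in transgenic hearts (adjusted p = 0.187), where 5 of 6 streptozotocin hearts lay above the vehicle mean. Cnp differed there by 0.15 ± 0.094 (adjusted p = 0.541), with 6 of 6 above that mean. The exact permutation test, unadjusted, gave p = 0.0173 for Jup and 0.00866 for Cnp, and no other of the 10 genes fell under 0.05 in that comparison. Across the 9 neighbours no difference in the STZ effect between the genotypes passed (0 called and 0 with an unadjusted p under 0.05 in limma), beside 0% called and 1.77% with an unadjusted p under 0.05 over all gene names.

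The streptozotocin values of Klhl10 and Dhx58 in control hearts depended on single arrays. For Dhx58 the difference was 0.042 ± 0.21 (SE) with all mice, 0.28 without CON_STZ replicate 3 and -0.073 without CON_STZ replicate 1. The Klhl10 difference in control hearts was -0.20 ± 0.30 (SE) with all mice and -0.56 without CON_VEH replicate 3 (adjusted p = 0.125). Within slides 1 to 3 it was -0.50, -0.62 and -0.61. CON_STZ hearts lay between -1.90 and -1.47, below the 5 other CON_VEH hearts. In transgenic hearts the Klhl10 difference was -0.48 ± 0.30 (adjusted p = 0.528).

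Of the 111 gene names within 1 Mb, 3 (2.70%) passed between CON_STZ and CON_VEH, a share below the 3.96% of all gene names, and 0 passed between mG4H_STZ and mG4H_VEH, beside 0.266%. All 3 lie between Jup and Klhl10 and were named after their values were seen. The probes of 1110036O03Rik and ENSMUST00000107402 lie close together, 145.1 and 145.4 kb before the Ttc25 probe. Whether they read the same gene was not checked, so the 3 names may stand for fewer genes. Fkbp10, an endoplasmic reticulum prolyl isomerase that helps fold collagen, rose by 0.92 (adjusted p = 0.000115), 1110036O03Rik by 0.75 (adjusted p = 0.00139) and the transcript ENSMUST00000107402 by 0.89 (adjusted p = 0.00627).

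Over the 24 arrays, with each slide's mean removed, the genes most like Ttc25 in pattern were not its neighbours. Among 27692 gene names with a value on every array, the named genes with the highest Pearson r to Ttc25 were Acaca (0.83), Rprml (0.83), Adap1 (0.82) and Aacs (0.80), and they held ranks 3, 4, 5 and 8 because features without a gene symbol were passed over. Rprml lies on chromosome 11 as well, 3.10 Mb from Ttc25, and had differences of 0.74 under vehicle and 0.97 under streptozotocin, neither past the threshold (adjusted p = 1 and 0.684). Acly had r = 0.33 and rank 2096, and the other neighbours ran from -0.12 for Dhx58 to 0.19 for Cnp. For Acly the 5 named genes were Bag4 (0.79), Stx18 (0.78), Mettl11a (0.77), Mcart1 (0.75) and Ttc7b (0.74), and Ttc25 held rank 3785. The arrays share their groups and their scaling, so these are descriptions without a test. Group means were not removed, so the genotype difference for which Ttc25 was chosen enters each r to Ttc25. These ranks therefore largely restate the genotype differences and say little on whether genes follow Ttc25 from mouse to mouse.

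The genes that work with each of the 10 were read from lists fixed for this purpose. Of 16 genes of fatty acid synthesis and its supply of acetyl-CoA, all measured, 1 was higher and 0 lower in mG4H_VEH than in CON_VEH hearts. That gene was Acaca, which ran from 1.37 to 1.64 in CON_VEH and from 2.24 to 2.81 in mG4H_VEH hearts, without overlap. Under streptozotocin 0 of 16 passed, with Acaca at 0.57 (adjusted p = 0.299). The share of all gene names that passed between the genotypes was 0.0815% under vehicle and 0.0106% under streptozotocin. With streptozotocin in control hearts 1 of the 16 was higher and 2 were lower, beside 3.96% of all gene names called in either direction. Me1, the malic enzyme, rose by 0.47, and Scd2, a stearoyl-CoA desaturase, and Thrsp, a regulator of lipid synthesis, fell by 0.41 and 1.23. In transgenic hearts 1 of 16 passed, beside 0.266% of all gene names, and Thrsp fell by 1.01 (adjusted p = 0.0173).

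Of 24 genes of outer dynein arm docking and the motile axoneme, only 10 passed the filter, and 10 others were not well above background on any array. The latter included the docking partners Ccdc114, Ccdc151 and Armc4, the dynein heavy chain Dnahc5 and the ciliary master regulator Foxj1. Between the genotypes 0 of 10 passed under either treatment, with median differences of -0.16 and -0.026. Of all gene names 0.0815% passed under vehicle and 0.0106% under streptozotocin, so 0 of 10 sets these genes apart from no others. With streptozotocin 1 of 10 passed in control hearts, beside 3.96% of all gene names. There Rsph1, a radial spoke protein, rose by 0.46 (adjusted p = 0.00589). In transgenic hearts 0 of 10 passed, beside 0.266%.

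The remaining lists held no gene past the threshold between the genotypes, beside 0.0815% of all gene names under vehicle and 0.0106% under streptozotocin. These were 12 desmosome and adherens junction genes, 17 RIG-I-like receptors and induced genes, 10 early endosome genes, 16 Cul3 and kelch genes, 15 measured genes of the Hsp70 and Hsp90 system and 12 genes of the NF-kappaB system. Their median differences ran from -0.024 to 0.077 under vehicle and from -0.16 to 0.083 under streptozotocin. With streptozotocin in control hearts 1 gene passed in each of 4 of these lists and 0 in the RIG-I and endosome lists, beside 3.96% of all gene names. Gja1, the main ventricular gap junction protein, fell by 0.50, Fkbp4, an Hsp90 partner, by 0.71, Klhl23 by 0.41 and Nkiras1, the paralog of Nkiras2, by 0.37. In transgenic hearts 0 genes of these lists passed, beside 0.266% of all gene names.

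Markers of other cells that could carry these transcripts did not pass between the genotypes, in 0 of 11 genes of myelinating glia, 0 of 5 measured of multiciliated cells, 0 of 5 of male germ cells, 0 of 7 of fat cells, 0 of 4 of atrial muscle, 0 of 7 of macrophages, 0 of 5 of endothelium and 0 of 6 of mesothelium and keratinised epithelium. Among all gene names 0.0815% passed under vehicle and 0.0106% under streptozotocin, so 0 called in lists this short does not measure cell content. Of the multiciliated list Foxj1 and Sntn were not well above background on any array, and of the germ cell list Odf1 and Tnp2. The summed level of the measured multiciliated markers ran from 0.427 to 0.589 times the 75th percentile signal in CON_VEH and from 0.513 to 0.600 in mG4H_VEH hearts. The summed level of 6 fat cell markers ran from 0.708 to 2.75 in CON_VEH, 1.34 to 3.99 in mG4H_VEH, 1.72 to 4.396 in CON_STZ and 1.37 to 3.28 in mG4H_STZ hearts, without Fabp4, whose spots were left out as outliers on 1 CON_STZ array. Its part in the Acly values was not tested. The median genotype difference of these lists ran from -0.098 to 0.085 under vehicle and from -0.22 to 0.043 under streptozotocin, apart from the atrial and the mesothelial lists. For the atrial list it was 1.16 under vehicle and -0.17 under streptozotocin, and for the mesothelial and keratinised list -0.50 and -0.16. Myl4, the atrial myosin light chain, named after its values were seen, ran from 1.53 over a median of 1.80 to 2.00 in CON_VEH and from 2.00 over 2.25 to 5.72 in mG4H_VEH hearts, a difference of 1.47 ± 0.54 (SE, adjusted p = 1). The groups of Myl4 were barely apart, and 2 transgenic hearts were above 5. Myl4 also lies on chromosome 11, between 1 and 5 Mb from Ttc25, and had the highest vehicle difference of the 258 gene names at that distance. Whether its position or the atrial content of the samples goes with its values was not tested. The summed level of the 4 atrial markers ran from 34.8 to 47.3 in CON_VEH, 21.5 to 105 in mG4H_VEH, 83.1 to 361 in CON_STZ and 61.6 to 521 in mG4H_STZ hearts, and its part in the Ttc25 difference was not tested. With streptozotocin 1 of 4 atrial genes passed in control and 1 of 4 in transgenic hearts, beside 3.96% and 0.266% of all gene names. Nppa, an atrial peptide gene, rose by 2.36 in control and 2.00 in transgenic hearts. The list did not rise with it as a whole. Its median difference with streptozotocin was 0.074 in control and -1.02 in transgenic hearts. Myl4 differed by -0.11 and -0.96, and neither value passed. In control hearts 1 of 11 glial genes and 1 of 5 multiciliated genes, Rsph1, passed as well, and Mal, a myelin gene, fell by 0.57. In whole ventricle, fewer cells of a type and less RNA per cell cannot be told apart.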

How the data were processed

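Per the file headers, the arrays were 1-colour Agilent arrays with 62976 spots, read with Agilent Feature Extraction 10.5.1.1, with probes placed on mm9. The authors deposited a processed intensity per spot, corrected for background and for trends across the array but not scaled between arrays, and the raw spot and local background intensities. Here each array was scaled on the log2 scale to the 75th percentile of its 59305 gene spots. Outlier spots (0.262%) were left out and spots of a probe averaged. A probe was kept if well above background on at least 6 of 24 arrays, and the brightest probe stood for its gene name, which left 28235 names. limma 3.58.1 in R 4.3.3 fitted the 4 group means, with Benjamini-Hochberg adjustment over all names and a threshold of 0.05. Genes with a test were also permuted exactly over mice. The fit was tested on simulated data. Array pairs correlated between 0.959 and 0.994, with 0 identical pairs. Named genes were all 10 genes with every probe, Slc2a4, called genes within 1 Mb, up to 4 called genes of each list and the 5 symbols most like Ttc25 and Acly, of which 1 is not reported here. Genes and lists were chosen with earlier results of these data known. The number of arrays limits the precision. Normalization, background correction, the filter, probe choice, blocks and left-out arrays were varied.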

Additional observations from a re-analysis of the deposited data

Results flagged for a closer look

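Of 56 sets of 6 hearts, 14 probes in 4 groups, 7 held 1 heart that stood apart by Dixon's test of its gap to the next heart, which chance alone gives in about 0.05 of sets. On slide 4, CON_VEH replicate 3 was low for Klhl10, at -3.35 with the next heart at -1.37, and high for Ttc25, at -3.93 with the next at -4.38. Among the neighbours, Cnp was high in mG4H_STZ replicate 4, at -0.035 against -0.40 for the next, and Dhx58 was low in CON_STZ replicate 3, at -3.42 against -2.18. Klhl11 was low in mG4H_VEH replicate 5, at -4.69 against -4.21, and Nkiras2 was low in mG4H_VEH replicate 2, at 3.64 against 4.02. Slc2a4 was low in mG4H_VEH replicate 3, at 6.33 against 6.52.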

How the results depend on the processing

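The alternatives covered quantile normalization, median scaling, the normexp correction, no filter and a stricter filter, probe averages and single probes, 2-group fits, slide as a block, the arrays without slide 4, a replicate block and each array left out in turn. Called neighbours and called genes within 1 Mb stayed at 0 in all of them, and 0.5 or 2 Mb gave 0 as well. The highest streptozotocin difference between the genotypes was 0.62 within 1 Mb and 1.36 within 2 Mb, neither of them called. Acly turned sign with averaged probes, to -0.056 (mG4H minus CON, vehicle) and -0.14 (STZ minus VEH, CON), and with normexp to 0.024 (mG4H minus CON, streptozotocin). Leaving out 1 array gave -0.048 to 0.029 for that last difference and 0.15 to 0.21 under vehicle. The adjusted p of Acly under vehicle ran from 0.556 to 1. Ttc25 ran from 0.94 to 2.52 under vehicle and from 0.71 to 1.82 under streptozotocin, lowest with normexp and its offset of 50. Same-numbered mice deviated together only for replicate 6 (mean r 0.42, against -0.14 to 0.028 for the others), so the numbers were not taken as pairs, and the replicate block gave 0 called neighbours and 0.17 for Acly under vehicle (adjusted p = 1). Median scaling moved the median of all genes by -0.11 between mG4H_STZ and mG4H_VEH. The cause of these changes was not tested. Signal over background limits the second Ttc25 probe in control hearts.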
